A study of Homo sapiens with 6 samples.

Results

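The genes described here belong to the unfolded protein response and to protein folding in the endoplasmic reticulum (ER). They were chosen as 44 named genes, matched by symbol to rows on the primary chromosomes of the deposited gene table, and 42 of the 44 had such a row among 18164 genes. ATF6B had only a row on an alternate scaffold and HYOU1 is not analysed here. All 42 had passed the low-count filter applied before deposit, and all were also kept by a stricter filter of 1 CPM (read counts scaled to library size) in 3 libraries.

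RNA sequencing was done on LNCaP, a human prostate cancer cell line that is sensitive to androgens and carries the genotype label WT. Cells of 3 samples were kept for 14 days in 5 µM enzalutamide, an antiandrogen drug, and cells of 3 samples received the vehicle DMSO, with 0.1% DMSO in every dish. Control dishes were seeded and handled on the same schedule but harvested at 70 to 80% confluency, so drug, density and time in culture cannot be told apart. The 6 samples come from 1 cell line, and nothing in the labels says that the replicates were separate cultures, so p-values measure the spread between these samples only.

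Total counts were 42302153 to 52107644 in the enzalutamide libraries and 35578160 to 42540487 in the DMSO libraries. All 11 LNCaP and luminal prostate markers were measured, of which 4 fell, 5 rose and 2 did not pass. KLK3, which encodes a secreted prostate protease, was among those that fell, at 194 ± 28.4 CPM with enzalutamide and 2582 ± 21.5 CPM in DMSO (SD, n = 3 each). Defining leukocyte markers had 0 of 6 members with a primary row, and fibroblast, endothelial and basal markers with a row stayed at or under a mean of 12.1 CPM in either group. Of 5 fibroblast markers 3 rose and 1 fell, with FAP at a mean of 2.11 CPM with enzalutamide and 0.0182 CPM in DMSO and COL3A1 at 2.92 CPM with enzalutamide and 0.837 CPM in DMSO. Of 3 endothelial markers 1 rose and 1 fell, and the 1 basal marker measured fell. The part of these low markers in the results was not tested. Mitochondrial genes took 12.1 to 15.7% of counts with enzalutamide and 10.5 to 11.2% in DMSO, and what part this share had in the results was not tested, except that leaving these genes out left the counts of members called as they are. Enzalutamide replicate 1 stood apart from the other 2 libraries of its group (correlation of log2 CPM 0.987 and 0.990, against 0.995 between the other 2). Members whose call changed without it are given with and without it.

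Proteins that enter the secretory pathway are folded in the ER by chaperones and by enzymes that form disulfide bonds, and those that fail to fold are sent back to the cytosol for degradation. When unfolded proteins build up, the membrane sensors IRE1 (gene ERN1), PERK (gene EIF2AK3) and ATF6 start the unfolded protein response. IRE1 splices XBP1 mRNA, PERK slows translation and favours ATF4, and ATF6 is cut in the Golgi to release a transcription factor. Prostate luminal cells secrete large amounts of protein, and androgen signalling is known to act on parts of this response. Gene counts do not separate spliced from unspliced XBP1 mRNA, nor do they show cleavage of ATF6 or phosphorylation of PERK.

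Promoter sequences are shown because some promoter elements are known to act in this pathway. The genes found with their letters did not all move in the same direction below, and what part the elements had was not tested. The ER stress response element (ERSE) is the site through which ATF6 and XBP1 are known to act on chaperone genes. RefSeq promoters (GRCh38.p14, 250 bases before to 50 bases after the start) matched 40 of the 42 measured members. On either strand, the ERSE letters, CCAAT, any 9 bases and CCACG, were found in 7 of these 40 promoters (17.5%), against 22 of 27305 promoters in all (0.0806%). HSPA5, HSP90B1 and CALR are among the genes from which this element was first described, so its presence there is background and not a result. Capitals mark the match, on the strand on which the gene is read. HSP90B1 held 1 match in each orientation.
HSPA5, chr9:125241371-125241429, minus strand: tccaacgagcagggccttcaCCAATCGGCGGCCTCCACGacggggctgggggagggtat
HSP90B1, chr12:103930196-103930359, plus strand: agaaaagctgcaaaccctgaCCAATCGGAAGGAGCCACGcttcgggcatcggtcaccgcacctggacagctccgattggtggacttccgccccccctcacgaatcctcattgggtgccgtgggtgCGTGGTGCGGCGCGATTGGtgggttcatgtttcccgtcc
CALR, chr19:12938364-12938422, plus strand: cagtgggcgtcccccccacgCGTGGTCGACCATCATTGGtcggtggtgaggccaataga
CANX, chr5:179698758-179698816, plus strand: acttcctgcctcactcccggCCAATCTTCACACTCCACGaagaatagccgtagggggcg
CRELD2, chr22:49918534-49918592, plus strand: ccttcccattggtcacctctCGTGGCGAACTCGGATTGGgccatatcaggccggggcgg
XBP1, chr22:28800583-28800641, minus strand: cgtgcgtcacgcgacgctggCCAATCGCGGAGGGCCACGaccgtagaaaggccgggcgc
ERO1B, chr1:236282163-236282208, minus strand: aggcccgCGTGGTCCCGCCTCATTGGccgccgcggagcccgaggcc

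A related element, ERSE-II (ATTGG, any base and CCACG, either strand), was found in 2 of the 40 promoters and in 15 of 27305 in all (0.0549%). The C/EBP-ATF response element (CARE, searched as TGATGNAA on either strand), through which ATF4 is known to act, was found in 3 of the 40 (7.5%) and in 1003 of 27305 (3.67%). The unfolded protein response element letters TGACGTGG were in 0 of the 40 promoters and in 217 of 27305 (0.795%). A match is a description of letters and not evidence of binding. The ERSE-II and CARE matches are shown because their genes, a degradation factor, a chaperone cofactor and feedback genes, moved in different directions. Capitals mark the match.
HERPUD1 ERSE-II, chr16:56932005-56932055, plus strand: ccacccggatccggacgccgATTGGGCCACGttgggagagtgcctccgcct
HERPUD1 CARE, chr16:56931946-56931993, plus strand: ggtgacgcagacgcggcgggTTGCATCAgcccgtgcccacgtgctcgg
SDF2L1 ERSE-II, chr22:21642094-21642144, plus strand: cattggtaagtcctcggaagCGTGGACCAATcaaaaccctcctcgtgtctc
CHAC1 CARE, chr15:40953242-40953289, plus strand: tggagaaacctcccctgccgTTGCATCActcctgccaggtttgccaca
PPP1R15B CARE, chr1:204412017-204412064, minus strand: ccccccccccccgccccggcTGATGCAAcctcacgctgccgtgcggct

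The comparison asks which of these genes differ in mRNA after 14 days of enzalutamide. With enzalutamide 7 of 10 genes grouped as ER chaperones and 5 of 9 grouped as disulfide genes fell. The mRNAs of IRE1, PERK, XBP1 and ATF4 did not pass the test. Genes of ER-associated degradation were called lower and higher in shares close to those of all genes. Of 42 members, 21 fell, 9 rose and 12 did not pass (edgeR quasi-likelihood test, adjusted p under 0.05 over all 18164 genes). The shares were 50% lower and 21.4% higher, against 29.2% of all genes tested called lower and 30.0% called higher. Members were chosen with earlier results of these data known, so the shares are descriptions. Upper quartile scaling gave 18 lower and 13 higher. The median log2 change, enzalutamide minus DMSO, was -0.30 over the members and -0.00 over all genes. In 21 members every enzalutamide library lay below every DMSO library, and in 11 every one lay above, where the same held for 33.0% and 33.4% of all genes. Leaving out enzalutamide replicate 1 could lower adjusted p in this test even where the change shrank. For ERO1A the log2 change went from -1.895 to -1.785 and adjusted p from 4.77e-07 to 1.79e-23. Calls gained without that library are therefore not stronger evidence than the full fit.

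**Figure D1:**
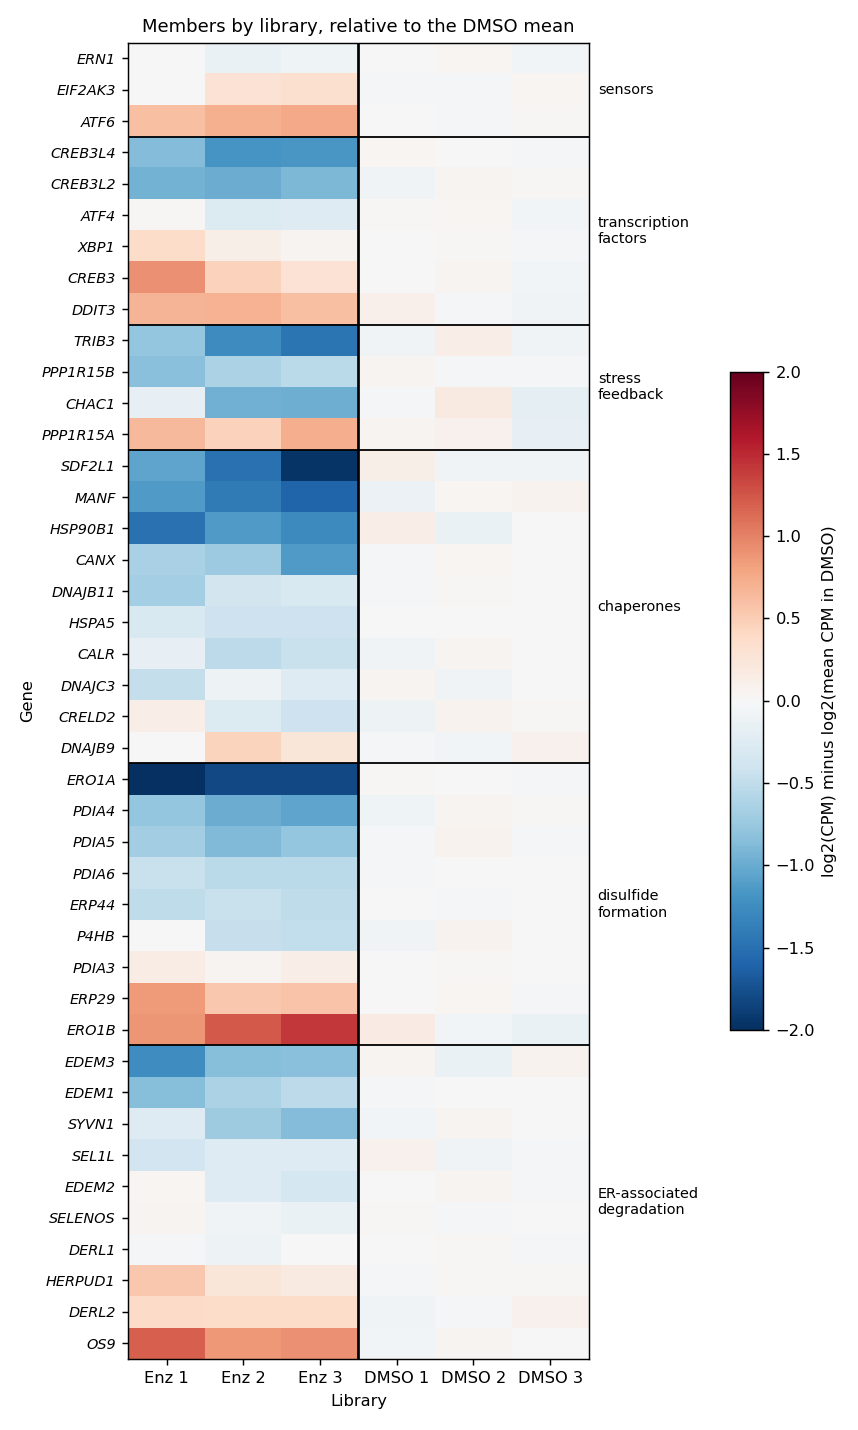
Level of each of 42 members (rows, by role) in each library (columns, enzalutamide left of DMSO), as log2 CPM minus the log2 of the mean CPM in DMSO, with blue lower and red higher. ERO1A, SDF2L1 and HSP90B1 are blue in all 3 enzalutamide libraries, ERO1B and OS9 are red in all 3, and the DMSO libraries differ little among themselves.

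Counted together, the 42 members took 0.762, 0.689 and 0.678% of all counts in the enzalutamide libraries, against 0.867, 0.868 and 0.867% in the DMSO libraries. Summed by role, chaperones reached 2391 ± 101 CPM with enzalutamide and 3669 ± 44.8 CPM in DMSO (SD, n = 3 each), and the libraries did not overlap. HSP90B1 alone differed by -676 CPM, CALR by -275 CPM and HSPA5 by -214 CPM. Degradation genes summed to 1105 ± 42.4 CPM with enzalutamide and 1094 ± 9.82 CPM in DMSO, with overlapping libraries, since OS9 differed by 155 CPM upward while EDEM1 and EDEM3 differed by -62.8 and -62.0 CPM. In bulk RNA, fewer cells of a type and less RNA per cell cannot be told apart.

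**Figure D2:**
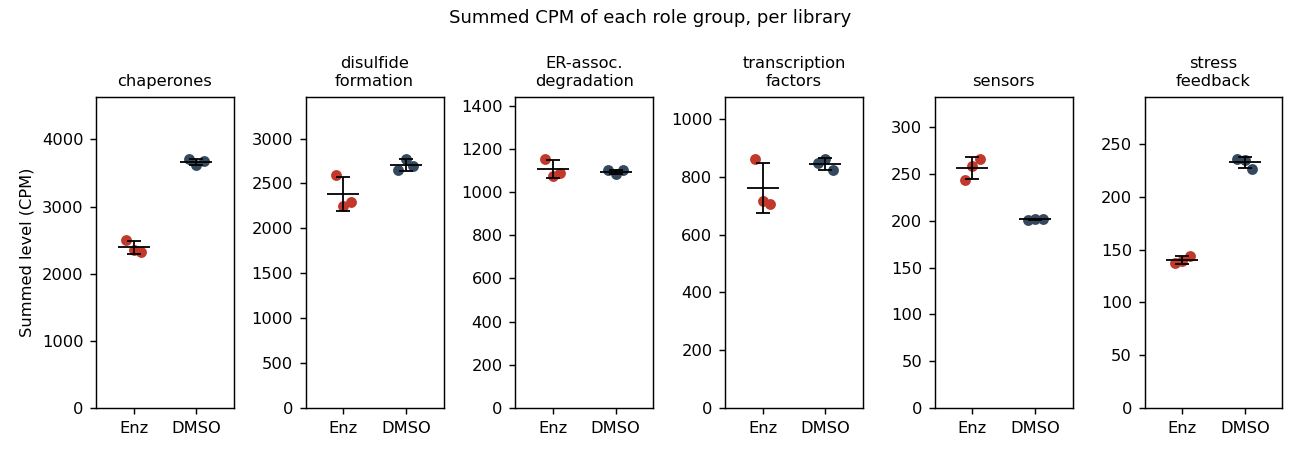
Summed CPM of the members of each role group in each library (points), with the mean and SD (line and whiskers, n = 3) for enzalutamide left of DMSO and axes from 0. The chaperone sum is 2318 to 2506 CPM with enzalutamide and 3621 to 3710 CPM in DMSO, and the degradation sums overlap.

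Of the membrane sensors, ATF6 rose while ERN1 and EIF2AK3 did not pass. ATF6 (chromosome 1, 161766320 to 161964070, hg38), which becomes a transcription factor of chaperone genes once cleaved, had 122, 133 and 137 CPM with enzalutamide and 80.6, 79.6 and 81.7 CPM in DMSO. The groups did not overlap, and the log2 change was 0.69 ± 0.09 (SE, adjusted p = 9.63e-05). ERN1 encodes IRE1, the kinase and nuclease that splices XBP1 mRNA, and had 70.2, 63.9 and 65.9 CPM with enzalutamide and 70.1, 72.1 and 67.6 CPM in DMSO. Its interval ran from -0.28 to 0.14 (log2, 95%), so a change of the size seen in ATF6 lies outside it, and its direction turned with upper quartile scaling (log2 change 0.06). EIF2AK3 encodes PERK, the kinase that phosphorylates eIF2alpha, and had 51.1, 62.3 and 63.7 CPM with enzalutamide and 50.1, 50.4 and 52.6 CPM in DMSO. Enzalutamide replicate 1 sat among the DMSO libraries for this gene and the other 2 did not. The log2 change of EIF2AK3, 0.21 ± 0.11 (SE), missed the threshold (adjusted p = 0.132), and it was past it when enzalutamide replicate 1 was left out (0.32, adjusted p = 6.27e-05) and with upper quartile scaling (0.34, adjusted p = 0.0269). An antisense gene shares 14.3% of the exon bases of EIF2AK3, and the use of strand in counting is unknown. ATF6B, the paralogue of ATF6, had only 15, 14 and 11 counts with enzalutamide and 13, 18 and 11 counts in DMSO on its scaffold row, which is too few to rank it beside ATF6.

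The pathway's central transcription factors XBP1 and ATF4 did not pass, DDIT3 and CREB3 rose, and CREB3L4 and CREB3L2 fell. XBP1, which drives chaperone and degradation genes once its mRNA is spliced, had 254, 214 and 204 CPM with enzalutamide and 197, 199 and 194 CPM in DMSO. All 3 enzalutamide libraries were above the DMSO libraries, most of all replicate 1, but the log2 change of 0.19 ± 0.10 (SE) did not pass (adjusted p = 0.139). It was 0.10 when enzalutamide replicate 1 was left out (adjusted p = 0.132), and it passed with upper quartile scaling (0.31, adjusted p = 0.0203). ATF4, the translationally controlled factor downstream of PERK, had 420, 343 and 346 CPM with enzalutamide and 420, 426 and 398 CPM in DMSO. Replicate 1 lay within the DMSO range and the other 2 below it. The log2 change was -0.17 ± 0.10 (SE, adjusted p = 0.185), and without enzalutamide replicate 1 it was -0.25 and passed (adjusted p = 0.000242). DDIT3, which encodes the stress factor CHOP, had 24.8, 25.01 and 23.5 CPM with enzalutamide and 16.7, 15.2 and 14.7 CPM in DMSO. These groups did not overlap, and DDIT3 rose 1.58-fold (log2 change 0.66 ± 0.11, SE, adjusted p = 0.000477). The opposite-strand gene MARS shares 27.2% of the exon bases of DDIT3, so its reads are uncertain.

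CREB3 family members are ER-bound factors that are cut and released in the manner of ATF6, and 3 of them moved in different directions. CREB3L4 (chromosome 1, 153967534 to 153974361), a family member known for high expression in prostate, had 41.6, 33.4 and 33.7 CPM with enzalutamide and 77.7, 75.7 and 74.3 CPM in DMSO. It fell 2.09-fold (log2 change -1.06 ± 0.11, SE, adjusted p = 2.43e-05) with no overlap. CREB3L2, known for control of secretory transport in cartilage, had 56.4, 54.3 and 57.9 CPM with enzalutamide and 103, 112 and 110 CPM in DMSO. Its fall of 1.92-fold (log2 change -0.94 ± 0.09, SE, adjusted p = 1.15e-05) was close in size. CREB3, by contrast, averaged 50.8 ± 11.8 CPM with enzalutamide and 34.1 ± 1.29 CPM in DMSO (SD, n = 3 each) and rose (log2 change 0.58 ± 0.15, SE, adjusted p = 0.0085). Without enzalutamide replicate 1, its highest library, the log2 change of CREB3 was 0.39 and still passed. On a per-length scale, the ratio of the CREB3L4 to the CREB3 level was 0.366, 0.402 and 0.458 with enzalutamide and 1.29, 1.20 and 1.27 in DMSO. The order of these 2 genes was therefore reversed, with CREB3 the higher of the pair in every enzalutamide library and the lower in every DMSO library.

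**Figure D3:**
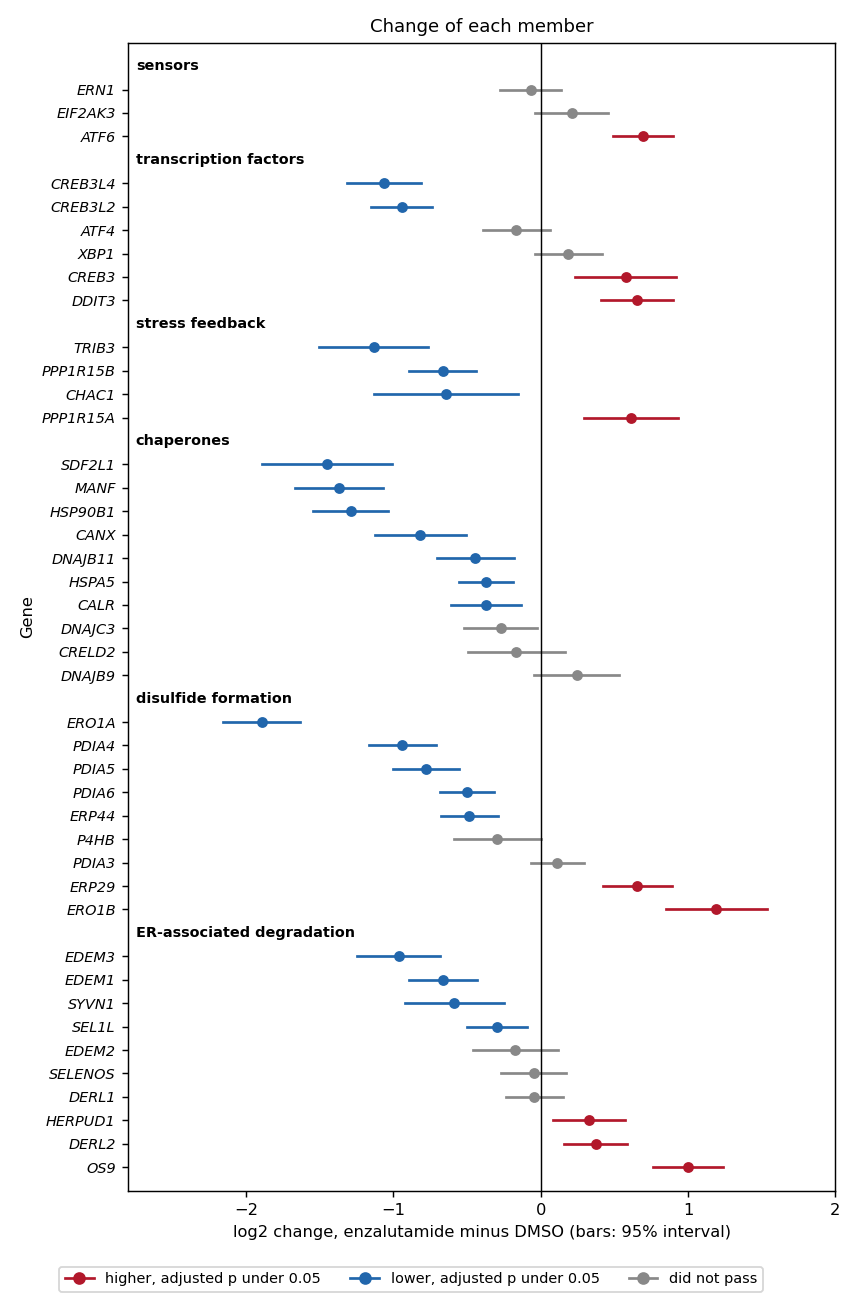
Log2 change, enzalutamide minus DMSO, of each member (points) with its 95% interval (bars), grouped by role and coloured by call. No member of the chaperone role group was called higher, while the disulfide and degradation groups hold members on both sides, from ERO1A at -1.90 to ERO1B at 1.19.

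Feedback genes of the stress response fell in 3 of 4 cases. TRIB3, a pseudokinase induced by ATF4 and CHOP that dampens their action, had 32.9, 23.6 and 20.5 CPM with enzalutamide and 53.7, 61.6 and 53.9 CPM in DMSO. The lowest DMSO library was well above the highest enzalutamide library, and TRIB3 fell 2.19-fold (log2 change -1.13 ± 0.17, SE, adjusted p = 0.000221). CHAC1, a glutathione-degrading enzyme and ATF4 target, had 5.93, 3.40 and 3.40 CPM with enzalutamide and 6.54, 7.53 and 5.88 CPM in DMSO. Enzalutamide replicate 1 overlapped the DMSO range, and the fall (log2 change -0.65 ± 0.22, SE, adjusted p = 0.0273) no longer passed with upper quartile scaling (adjusted p = 0.0562) or when any of 4 libraries was left out, namely enzalutamide replicate 2 (0.104) or 3 (0.0796), or DMSO replicate 1 (0.0627) or 2 (0.0932).

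The regulatory subunits that guide phosphatase to eIF2alpha moved in opposite directions. PPP1R15B, the constitutive subunit, had 92.8, 107 and 115 CPM with enzalutamide and 172, 163 and 164 CPM in DMSO, with no overlap, and fell (log2 change -0.66 ± 0.10, SE, adjusted p = 0.000304). PPP1R15A, the stress-induced subunit also called GADD34, averaged 5.30 ± 0.512 CPM with enzalutamide and 3.46 ± 0.328 CPM in DMSO (SD, n = 3 each) and rose (log2 change 0.61 ± 0.14, SE, adjusted p = 0.00388). Per length, PPP1R15A stood at 0.0874 ± 0.0122 of the PPP1R15B level with enzalutamide and 0.0357 ± 0.00331 in DMSO (SD, n = 3 each), so PPP1R15B remained the more abundant of the pair in all 6 libraries.

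Among the 10 members grouped as chaperones and cofactors, 7 were called lower, 0 higher and 3 missed the threshold, with a median log2 change of -0.41. ERP29, a chaperone placed here with the disulfide genes, rose (log2 change 0.66, adjusted p = 0.000378). The count of 0 higher therefore depends on this grouping. HSP90B1 (chromosome 12, 103930107 to 103953645), the ER member of the HSP90 family, had 407, 523 and 472 CPM with enzalutamide and 1251, 1044 and 1134 CPM in DMSO. It fell 2.45-fold (log2 change -1.29 ± 0.11, SE, adjusted p = 6.53e-06), and no library overlapped. HSPA5 (chromosome 9, 125234853 to 125241343) encodes BiP, the main HSP70 of the ER and the usual marker of the response, and had 761, 704 and 707 CPM with enzalutamide and 935, 946 and 934 CPM in DMSO. Its libraries did not overlap either, but the fall was only 1.30-fold (log2 change -0.37 ± 0.08, SE, adjusted p = 0.00272), and the log2 change was -0.25 with upper quartile scaling. The 95% intervals of the 2 changes, -1.55 to -1.04 for HSP90B1 and -0.56 to -0.19 for HSPA5, do not meet. Both promoters hold ERSE letters, and what part these had in the changes was not tested.

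The small chaperone cofactors SDF2L1 and MANF also fell. SDF2L1, a cofactor that binds ER J-domain proteins, had 8.33, 6.18 and 4.47 CPM with enzalutamide and 18.9, 16.6 and 16.6 CPM in DMSO. Counts of this gene were low, and its fall of 2.73-fold (log2 change -1.45 ± 0.20, SE, adjusted p = 0.000136) has the widest interval among the chaperones that fell, -1.89 to -1.01. SDF2, a related gene outside the members, was named after its values were seen. It rose from a mean of 37.1 CPM in DMSO to 55.0 CPM with enzalutamide (log2 change 0.57, adjusted p = 0.00342). MANF, a secreted ER stress protein that binds BiP, had 41.7, 34.1 and 29.9 CPM with enzalutamide and 83.6, 93.6 and 96.0 CPM in DMSO. The groups lay far apart, and MANF fell 2.58-fold (log2 change -1.37 ± 0.13, SE, adjusted p = 1.28e-05).

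CALR, calreticulin, a lectin chaperone of glycoproteins and the most abundant member per length in DMSO (346 ± 47.1 RPKM with enzalutamide and 447 ± 19.03 RPKM in DMSO, SD, n = 3 each), fell by 0.37 on the log2 scale (adjusted p = 0.0131). That call was lost without DMSO replicate 2 (adjusted p = 0.0535) or enzalutamide replicate 2 (0.0628), and with upper quartile scaling (0.0697). CANX, calnexin, the membrane-bound partner of calreticulin, fell on its primary row (log2 change -0.82, adjusted p = 0.00058), and a second row on an alternate scaffold held more counts and gave -0.51 (adjusted p = 0.00157). With both rows summed, an alternative chosen after seeing the data, the change was -0.61 (adjusted p = 0.000254), so the direction of CANX held while its size and level are uncertain.

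The J-domain proteins that hand clients to BiP differed among themselves. DNAJB11 fell (log2 change -0.44 ± 0.12, SE, adjusted p = 0.00786). DNAJC3 did not pass (-0.27, adjusted p = 0.0578), and it passed with a smaller change without enzalutamide replicate 1 (-0.16, adjusted p = 0.0242) and with a larger one without replicate 2 (-0.36, adjusted p = 0.0304). DNAJB9, which is known to repress IRE1, was at 0.25 (adjusted p = 0.13), and passed as higher without enzalutamide replicate 1 (0.37, adjusted p = 4.40e-05) and with upper quartile scaling (0.37, adjusted p = 0.0309). CRELD2, a cysteine-rich ER stress protein, was at -0.17 (adjusted p = 0.358) and passed as lower without enzalutamide replicate 1 (-0.33, adjusted p = 0.000261), while it was -0.06 without replicate 3.

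Disulfide formation held both the largest fall and the largest rise of all members, in a pair of paralogues. ERO1A (chromosome 14, 52639915 to 52695900), the widely expressed oxidase that recharges protein disulfide isomerases, had 15.0, 18.5 and 18.5 CPM with enzalutamide and 65.4, 64.5 and 63.6 CPM in DMSO. It fell 3.72-fold (log2 change -1.90 ± 0.12, SE, adjusted p = 4.77e-07), with groups far apart and DMSO libraries close together. ERO1B (chromosome 1, 236215555 to 236281985), the paralogue known for expression in pancreas and other secretory tissue, had 30.5, 38.9 and 44.3 CPM with enzalutamide and 18.6, 16.0 and 15.1 CPM in DMSO. It rose 2.29-fold (log2 change 1.19 ± 0.15, SE, adjusted p = 9.03e-05), again without overlap. Per length, the ERO1B level was 2.87, 2.95 and 3.37 times that of ERO1A in the enzalutamide libraries and 0.401, 0.349 and 0.334 times in the DMSO libraries, so the more abundant paralogue changed in every library.

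Among the 7 paralogue ratios per length that were computed, none overlapped between the groups. No share over other gene pairs stands beside this count, some genes enter several ratios, and 33.0% and 33.4% of all single genes did not overlap (lower and higher). The EDEM1 to EDEM3 ratio was barely apart, at 1.79 in enzalutamide replicate 2 and 1.73 in DMSO replicate 2. An exact two-sided permutation test of 3 against 3 libraries gave 0.1 for each ratio. This is the smallest p the design allows, so these ratios are descriptions.

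**Figure D4:**
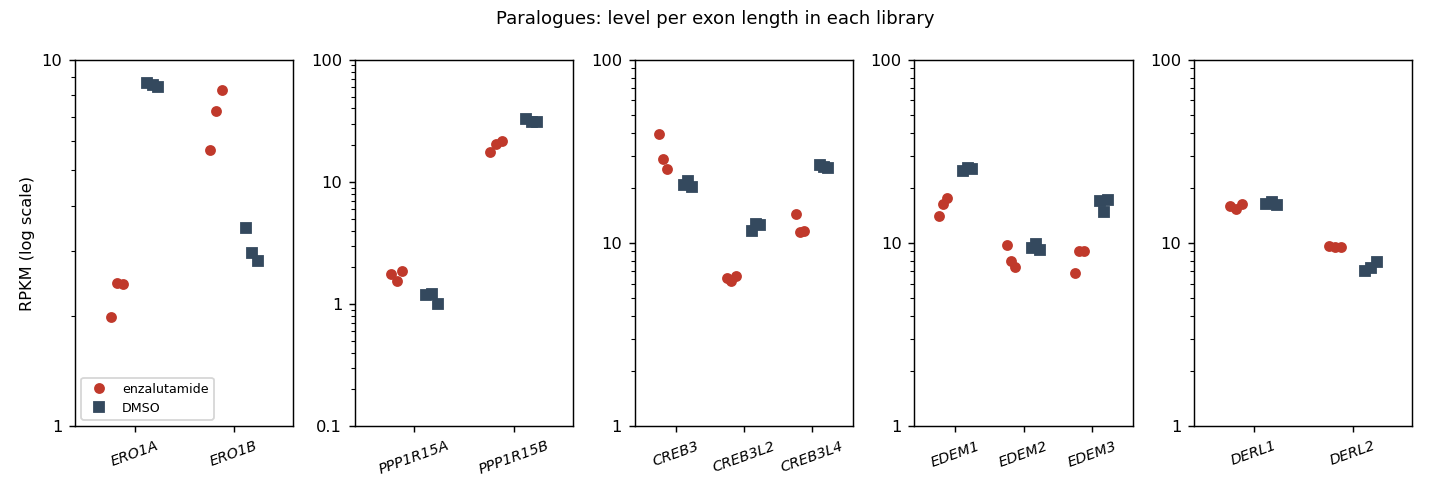
Level per exon length (RPKM, log axis) of paralogous members in each library, with enzalutamide as red circles left of DMSO as dark squares for each gene. ERO1B lies above ERO1A with enzalutamide and below it in DMSO, CREB3 lies above CREB3L4 with enzalutamide and below it in DMSO, and PPP1R15B stays above PPP1R15A in all 6 libraries.

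Protein disulfide isomerases, the enzymes that make and rearrange the bonds, fell in several cases. PDIA4, a large isomerase with an extra active-site domain, had 184, 158 and 152 CPM with enzalutamide and 298, 329 and 322 CPM in DMSO. This was a fall of 1.92-fold (log2 change -0.94 ± 0.10, SE, adjusted p = 2.52e-05). PDIA5 had 36.0, 31.7 and 34.0 CPM with enzalutamide and 57.1, 60.9 and 56.5 CPM in DMSO. It fell 1.72-fold (log2 change -0.78 ± 0.10, SE, adjusted p = 8.79e-05), with 12% of its exon bases shared with SEC22A. PDIA6 fell by 0.50 on the log2 scale (adjusted p = 0.000443), with 25.2% of its exon bases under the opposite-strand gene ATP6V1C2. ERP44, which retains unassembled secretory proteins, fell by 0.49 (adjusted p = 0.000767).

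The isomerases with the highest levels, P4HB and PDIA3, did not pass. P4HB, the classical protein disulfide isomerase, had 766, 550 and 541 CPM with enzalutamide and 724, 796 and 758 CPM in DMSO. Enzalutamide replicate 1 lay inside the DMSO range and the other 2 lay below it. The log2 change of P4HB, -0.29 ± 0.13 (SE), missed the threshold (adjusted p = 0.0813), and with enzalutamide replicate 1 left out it was -0.46 and past it (adjusted p = 8.48e-09). PDIA3, the isomerase that works with calnexin and calreticulin, had 991, 938 and 985 CPM with enzalutamide and 892, 911 and 893 CPM in DMSO, a difference that did not pass (log2 change 0.11, interval -0.07 to 0.29, adjusted p = 0.253) except with upper quartile scaling (0.24, adjusted p = 0.0285). ERP29, a thioredoxin-fold chaperone without the isomerase active site, rose (log2 change 0.66 ± 0.10, SE, adjusted p = 0.000378), at 209 ± 25.4 CPM with enzalutamide and 133 ± 3.53 CPM in DMSO (SD, n = 3 each). An opposite-strand gene in the table shares 17.7% of the exon bases of ERP29. Opposite-strand genes also share 14.9% (ELL3) and 14.4% of the exon bases of PDIA3.

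Genes of ER-associated degradation fell in 4 of 10 cases (40%) and rose in 3 (30%), near the 29.2% and 30.0% of all genes. OS9 (chromosome 12, 57693955 to 57721557), a lectin that delivers misfolded glycoproteins to the ubiquitin ligase, had 354, 282 and 292 CPM with enzalutamide and 149, 161 and 154 CPM in DMSO. It rose 2.00-fold (log2 change 1.00 ± 0.11, SE, adjusted p = 2.36e-05) without overlap of the groups. An opposite-strand gene shares 13.5% of the exon bases of OS9. HERPUD1, a scaffold of the ligase complex and a common marker of ER stress, had 189, 154 and 147 CPM with enzalutamide and 126, 132 and 132 CPM in DMSO. The rise was small (log2 change 0.33 ± 0.11, SE, adjusted p = 0.0258), and it was lost without DMSO replicate 1 (adjusted p = 0.0947), 2 (0.0702) or 3 (0.0751). Without enzalutamide replicate 1, its highest library, the log2 change of HERPUD1 was 0.22 and still passed. DERL2, a channel component, rose by 0.37 on the log2 scale (adjusted p = 0.00676), while its paralogue DERL1 did not pass (-0.04, interval -0.24 to 0.15), with a direction that turned under upper quartile scaling (0.08).

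The EDEM proteins, which trim mannose from misfolded glycoproteins ahead of OS9, were lower or did not pass. EDEM3 had 53.7, 70.8 and 70.9 CPM with enzalutamide and 132, 116 and 134 CPM in DMSO. It fell 1.95-fold (log2 change -0.97 ± 0.13, SE, adjusted p = 0.000108), with enzalutamide replicate 1 the lowest library. EDEM1 fell by 0.66 on the log2 scale (adjusted p = 0.000326). EDEM2 did not pass (-0.17, adjusted p = 0.271) but passed as lower without enzalutamide replicate 1 (-0.28, adjusted p = 0.00382). SYVN1, the ubiquitin ligase HRD1, fell by 0.59 (adjusted p = 0.00696), and SEL1L, its partner, fell by 0.30 (adjusted p = 0.017). The SEL1L call was lost without DMSO replicate 1 (adjusted p = 0.0947) or 3 (0.0602) and with upper quartile scaling (0.142). SELENOS, a selenoprotein of the same complex, was at -0.05 (interval -0.27 to 0.17), and at 0.08 with upper quartile scaling.

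Within the enzalutamide group, replicate 1 was the highest library for 25 of 42 members (59.5%), against 43.6% of all genes, and the lowest for 12 (28.6%), against 43.0% of all genes. It was the highest for TRIB3, CHAC1, SDF2L1, MANF, XBP1, ATF4, CREB3, P4HB and HERPUD1, and the lowest for HSP90B1, ERO1A, EDEM3, EDEM1 and EIF2AK3. Without that library 26 members were lower and 11 higher. Calls in the related lists described below rose as well, from 101 to 132 lower and from 59 to 77 higher. The added calls were therefore not particular to the members. The median coefficient of variation over the members was 12.1% among enzalutamide libraries and 3.72% among DMSO libraries, and 38 of 42 members varied more with enzalutamide. Over 2711 genes whose mean reached 100 CPM in either group the medians were 12.3% and 3.66%, so this spread was shared with those genes. Many members lie below that level, and no share over all genes stands beside the count of 38.

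Of 22 promoters with ERSE letters in the reference, 15 belonged to genes in the table, where 6 were lower, 3 higher and 6 past no threshold, and their median log2 change was -0.17. Over all genes tested 29.2% were lower and 30.0% higher, and whether these few genes differ from those shares was not tested. Among the 7 members, HSP90B1, CANX, HSPA5 and CALR fell, ERO1B rose, and XBP1 and CRELD2 did not pass. Of the 8 other genes, 2 fell, 2 rose and 4 did not pass. Named after their values were seen, SERP1, a small ER membrane protein, rose (log2 change 0.55, adjusted p = 0.000704). FICD, which modifies BiP by AMPylation, also rose (0.57, adjusted p = 0.00137), and EIF2A, an initiation factor, fell (-0.84, adjusted p = 0.000532). The members with ERSE-II letters also split, with SDF2L1 lower and HERPUD1 higher. Of the members with CARE letters, CHAC1 and PPP1R15B fell and HERPUD1 rose.

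Related genes were described from 11 lists around the ER, in which 261 of 273 genes had a primary row, 101 fell and 59 rose (38.7% and 22.6%). The counts of each list stand against 29.2% lower and 30.0% higher over all genes tested, as descriptions, since the lists too were chosen with earlier results known. ATF4 target genes fell in 13 of 23 cases and rose in 3, with a median log2 change of -0.53. MTHFD2, a mitochondrial enzyme of one-carbon metabolism, fell to 62.0 ± 5.02 CPM with enzalutamide, against 212 ± 5.07 CPM in DMSO (SD, n = 3 each). GDF15, a stress-induced secreted factor, fell (log2 change -2.02), and TRIB1, a pseudokinase related to TRIB3, rose (1.52). In the list of eIF2 kinases, subunits and related genes, 9 of 16 fell and 1 rose. It was led by EIF2S1 (log2 change -1.21), the alpha subunit that PERK phosphorylates, EIF2S3 (-0.97), the gamma subunit, and the listed gene DNAJC2 (-1.05).

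Other ER folding genes fell in 16 of 36 cases and rose in 6. CLGN, calmegin, a relative of calnexin, fell to 37.0 ± 8.81 CPM with enzalutamide, against 213 ± 28.2 CPM in DMSO (SD, n = 3 each, log2 change -2.53, adjusted p = 1.19e-06), FKBP9, a prolyl isomerase, rose (1.39), and QSOX2, a sulfhydryl oxidase, fell (-1.37). Genes of the translocon and signal peptidase fell in 10 of 25 cases and rose in 4, led by SPCS3 (log2 change -1.40), SEC61G (-1.09) and SSR3 (-0.88). Oligosaccharyltransferase subunits fell in 4 of 12 cases and rose in 1, with TMEM258 at -0.69, OSTC at -0.59 and STT3A, a catalytic subunit, at -0.41. Transport from ER to Golgi fell in 12 of 30 cases and rose in 5, with SEC24D, a cargo adaptor of COPII vesicles, at -0.94, ERGIC2 at -0.91 and SEC31B at 0.89.

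Of further degradation genes 8 of 31 fell and 8 rose (25.8% each), near the shares of all genes, among them UBXN8 at -1.30, ERLIN2, which acts on the inositol trisphosphate receptor, at 1.15 and RNF185, a ligase, at 0.68. Genes that control ATF6 and IRE1 fell in 8 of 20 cases and rose in 5. BAX, a pro-apoptotic protein, was at -1.33, THBS1 at -0.92 and TMBIM6, also called BAX inhibitor 1, at 0.78. The proteases that cut ATF6 in the Golgi moved apart in small steps, MBTPS1 at 0.27 (adjusted p = 0.0293) and MBTPS2 at -0.57 (adjusted p = 0.00059), named after their values were seen.

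Genes of ER shape and turnover rose in 10 of 25 cases and fell in 6, with REEP2 (log2 change 2.61) and REEP1 (2.20) higher and REEP4, which clears ER from chromosomes in mitosis, lower (-1.99). Genes of ER calcium rose in 9 of 21 cases and fell in 6. ITPR1, the inositol trisphosphate receptor that releases ER calcium, rose to 249 ± 7.73 CPM with enzalutamide, against 50.9 ± 1.11 CPM in DMSO (SD, n = 3 each, log2 change 2.29, adjusted p = 1.38e-08). ATP2A3, a calcium pump, was at 2.38 with a mean of only 1.10 CPM with enzalutamide, and RCN3 was at -1.64.

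ERO1A is also known as a hypoxia-induced gene, and the hypoxia list was mixed, with 9 of 22 lower and 7 higher. EGLN3, an oxygen-sensing hydroxylase, rose (log2 change 5.02), HK2, a hexokinase, fell (-3.15), and SLC2A3, a glucose transporter, had a mean of 0.0253 CPM with enzalutamide and 1.40 CPM in DMSO. What part hypoxia-linked control had in the fall of ERO1A was not tested.

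**Figure D5:**
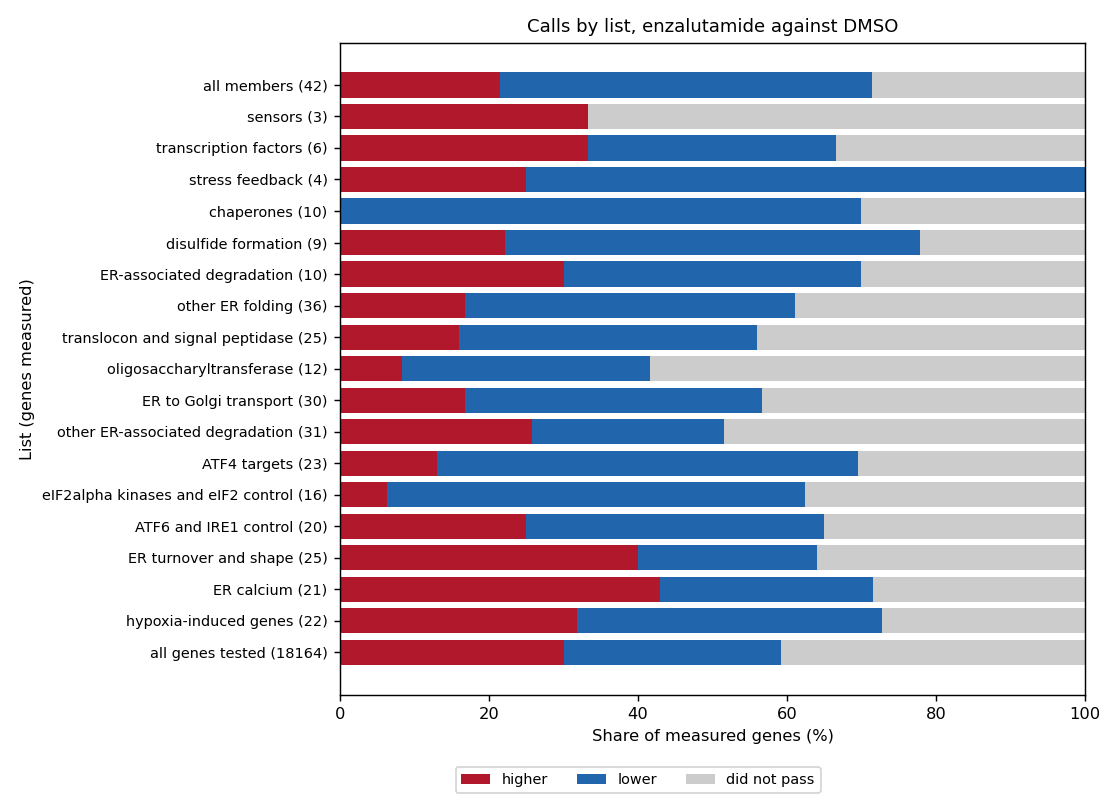
Share of measured genes called higher (red), lower (blue) or not past the threshold (grey) in the members, their role groups and the related lists, with the number of genes measured beside each name and all 18164 genes tested in the lowest bar (30.0% higher and 29.2% lower). The chaperone role group holds 70.0% lower and 0% higher, and ER calcium genes hold 42.9% higher.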

How the data were processed

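The submitters' processing notes name hg38 as the build, and as tools edgeR 3.20.8, Subread 1.6.5, featureCounts, STAR 2.5 and bcl2fastq. Per the file headers, the authors deposited raw counts by gene for every library. No gene in the file has fewer than 3 libraries with a count of 9 or more. It further holds log2 values made by the authors (CPM, RPKM and the fold change), with their p-value and its adjusted form, as the headers name them. Strand use is not stated.

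The test on these counts used edgeR 4.0.16 (R 4.3.3) with TMM scaling, filterByExpr (0 genes removed), a robust quasi-likelihood fit with group as its only term and Benjamini-Hochberg adjustment over 18164 genes. It had 4 residual degrees of freedom. SE is the size of the log2 change over the square root of F, and intervals are 95%. CPM uses TMM-scaled library sizes, and RPKM divides it by the deposited exon length. By the authors' deposited table, members lower at a false discovery rate under 0.05 numbered 22 and members higher 9, and 41 of 42 calls matched. Exon overlaps were taken from GENCODE 29 (GRCh38). Other members also had overlaps below 12% of exon bases. Among them, SYVN1 shared 7.2% with FAU on the same strand and CREB3L4 9.6% with SLC39A1 on the opposite strand. The rest are not given by gene, and what part these overlaps had in the changes was not tested. The test was checked on simulated counts in which few genes changed and both groups had the same spread. In these data 59.2% of genes were called and the groups differed in spread, so that check does not show how the test performs on them. Alternatives were other scalings, DESeq2 1.42.0, limma-voom with limma 3.58.1, filters, a replicate term and leaving out each library.

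Members and lists were chosen with earlier results of these data known. All members are accounted for. Values by library are given for a fixed set of 17 genes and for up to 2 members of each role group with the largest change past the threshold, and up to 3 genes past the threshold were named from each related list, by size, where the higher group averaged 1 CPM or more.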

Additional observations from a re-analysis of the deposited data

How the results depend on the processing

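The counts of members called lower and higher, 21 and 9, stayed within 1.5 times of these values under every alternative run. They ranged from 18 to 26 lower and from 8 to 13 higher, and were 19 to 26 and 8 to 11 with 1 library left out. In all fits with 1 library left out, 18 of the 21 lower calls and 8 of the 9 higher calls remained. Of the 42 members, 26 kept direction and side of the threshold under all alternatives. Upper quartile scaling shifted the median of all genes by 0.13 (log2) and the median of the members to -0.17, against -0.30, and it gave 18 lower and 13 higher. Relative to that shift the members' median is close to the one reported. With that scaling ERN1 was at 0.0576, DERL1 at 0.0833 and SELENOS at 0.0783, each reversed and past no threshold. Leaving out mitochondrial genes, chosen after seeing the data, gave 21 and 9. Samples with the same replicate number did not deviate together (correlations of deviations -0.15, -0.144 and 0.051), so the numbers were not treated as pairs. With the replicate block 20 members were lower and 8 higher. SEL1L (adjusted p = 0.0658) and HERPUD1 (0.0616) no longer passed in that block fit. The related lists held 81 to 132 lower and 47 to 77 higher genes under the alternatives. DESeq2 called the same 21 members lower. Among the 42 members the lowest count in a library was 109, for PPP1R15A in DMSO, and ATF6B had 11 to 18 counts on its scaffold row.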
